A study of Mus musculus with 2 samples.

Results

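The genes described here are 10 genes of extracellular proteolysis, of 27998 genes in the count tables: the matrix metalloproteinases Mmp2, Mmp8, Mmp9, Mmp12, Mmp13, Mmp14 and Mmp19, the tissue inhibitors of metalloproteinases Timp1 and Timp2, and the membrane protease Adam8. They were chosen by gene symbol, and each of the 10 matched 1 row of the tables. The study profiled single cells of mouse tumours in 2 libraries (replicate 1 and replicate 2), each made from cells selected for CD11c, a surface integrin of dendritic cells and many macrophages. Both libraries carry the label WT, and the mice were C57BL/6N animals with PyMT, the polyomavirus middle T oncogene that drives mammary tumours. The sources used here do not state the promoter of the transgene, the age of the mice or how many mice stand behind a library. The labels hold 1 group, so the comparisons below are between cell classes inside the libraries. Each p-value rests on how far the differences between classes vary between these 2 libraries, in a spread estimated over all classes together. That spread may be technical.

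Matrix metalloproteinases are zinc-dependent enzymes that are made as inactive precursors and cut collagens, elastin and other matrix proteins once their propeptide is removed. The tissue inhibitors block the active enzymes, and Timp2 together with the membrane-bound Mmp14 also forms the complex that activates the Mmp2 precursor. In tumours these genes are known as products of macrophages and fibroblasts: Mmp12 is the macrophage elastase, Mmp13 and Mmp8 are collagenases, Mmp2 and Mmp9 are gelatinases, and Adam8 is a protease of the leukocyte surface.

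Of the 10 genes, 3 are neighbours on mouse chromosome 9, and the sequences in front of them are shown because Mmp12 and Mmp13 had their highest mean level in the same cell class, although Mmp13 was higher in another class in replicate 2. In GRCm38 (mm10), with GENCODE M21 gene models, Mmp13 lies at chr9:7272514-7283331, Mmp12 at chr9:7344381-7369499 and Mmp8 at chr9:7558456-7568485, all protein-coding and on the plus strand. Between Mmp13 and Mmp12 lie 61049 bases with no other metalloproteinase of the lists used here, and between Mmp12 and Mmp8 lie 188956 bases that hold Mmp3 and Mmp10. The 250 bases before the RefSeq start (build GRCm38.p6, plus strand) are printed 5′ to 3′, with 2 starts for Mmp12. Capitals mark the AP-1 letters (TGACTCA or its reverse complement TGAGTCA) and the PU.1 letters (GAGGAAGT or its reverse complement ACTTCCTC).
Mmp13 (chr9:7272264-7272513): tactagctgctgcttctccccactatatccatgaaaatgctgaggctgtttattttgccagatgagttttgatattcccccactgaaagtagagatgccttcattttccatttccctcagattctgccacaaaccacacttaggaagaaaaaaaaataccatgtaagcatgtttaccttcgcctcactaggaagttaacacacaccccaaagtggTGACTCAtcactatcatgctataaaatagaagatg
Mmp12, first start (chr9:7344147-7344396): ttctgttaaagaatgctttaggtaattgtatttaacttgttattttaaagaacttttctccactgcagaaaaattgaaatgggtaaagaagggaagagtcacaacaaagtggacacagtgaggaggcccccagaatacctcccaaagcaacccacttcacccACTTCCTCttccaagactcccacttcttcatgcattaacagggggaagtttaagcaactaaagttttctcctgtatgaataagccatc
Mmp12, second start (chr9:7347124-7347373): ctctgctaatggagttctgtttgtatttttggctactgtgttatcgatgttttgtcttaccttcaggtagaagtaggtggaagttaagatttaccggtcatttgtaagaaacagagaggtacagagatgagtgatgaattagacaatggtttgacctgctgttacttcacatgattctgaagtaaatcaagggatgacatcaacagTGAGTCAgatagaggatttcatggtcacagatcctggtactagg
Mmp8 (chr9:7558179-7558428): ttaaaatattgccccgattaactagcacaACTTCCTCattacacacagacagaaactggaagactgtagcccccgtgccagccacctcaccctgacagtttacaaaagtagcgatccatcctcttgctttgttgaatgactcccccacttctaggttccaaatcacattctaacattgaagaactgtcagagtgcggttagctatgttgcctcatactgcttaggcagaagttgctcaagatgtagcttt
AP-1 letters began 35 bases before the Mmp13 start and 44 bases before the second Mmp12 start. PU.1 letters began 88 bases before the first Mmp12 start and 221 bases before the Mmp8 start. Of 32851 windows of the same length in the RefSeq table, 4.46% held the AP-1 letters and 2.44% the PU.1 letters, on either strand. These are letter matches only, and nothing was measured at these sites. The windows of Mmp14, Timp1, Timp2 and Adam8 were also searched and held neither run of letters.

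The libraries held 17369071 UMIs (unique molecular identifiers, each standing for 1 captured transcript) in replicate 1 and 13317214 in replicate 2. Cells numbered 1898 and 1214, with a median of 5659.5 and 7141.5 UMIs per cell. Ptprc, the general leukocyte gene, was seen in 70.2% and 75.9% of cells, and Itgax, which encodes CD11c, in 34.2% and 43.2%. Epithelial-like and fibroblast-like cells were found in both libraries although the label reads myeloid cells. Clusters were built without the 10 genes, named from markers and marked "like", and 1 fit was made over the 12 classes that had 20 cells or more in both libraries. In replicate 1 and replicate 2, these classes held 23 and 25 fibroblast-like, 110 and 40 epithelial-like, 95 and 34 Spp1 Gpnmb macrophage-like, 233 and 98 Ccr2 Fcgr4 macrophage-like, and 293 and 47 resident macrophage-like cells. They further held 215 and 120 monocyte-like, 404 and 406 C1q macrophage-like, 46 and 23 mature DC-like, 128 and 63 cDC1-like, 174 and 176 cDC2-like, 87 and 67 cycling, and 50 and 47 NK cell-like cells (DC stands for dendritic cell, cDC for conventional dendritic cell). The name monocyte-like rests on 3 of its 10 markers (Retnla, Ear2 and Fn1). The name NK cell-like rests on 5 of its 8 markers. In that class 4 of the 5 T cell markers present in the count tables were raised too. Cd3g and Cd3d were among its leading genes, so it may hold T cells as well. The name Ccr2 Fcgr4 macrophage-like rests on 6 of its 10 markers (Fcgr4, Ms4a4c, Cxcl9, Gbp2, Ly6a and Ly6c2), and Ccr2 itself was not among the raised ones. RNA set free in the suspension made up at most 0.662% to 3.67% of the UMIs of the 10 immune and cycling classes. The same ceiling was 5.94% and 2.79% in epithelial-like cells and 2.95% and 1.31% in fibroblast-like cells.

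Each of the genes had its own distribution over the classes. In all cells of both libraries there were 2173 UMIs of Adam8, 2166 of Timp2, 2055 of Mmp12, 1767 of Timp1, 1495 of Mmp19, 1108 of Mmp14, 720 of Mmp2 and 458 of Mmp13, but 28 of Mmp9 and 22 of Mmp8. Fibroblast-like cells were 1.54% of the cells and held 71.4% of the Mmp2 UMIs and 65.3% of the Timp1 UMIs. The Timp1 share rests on replicate 2, with 121 of 355 UMIs in fibroblast-like cells of replicate 1 and 1033 of 1412 in those of replicate 2. C1q macrophage-like cells were 26.0% of the cells and held 54.9% of the Mmp12 and 58.7% of the Mmp13 UMIs. Monocyte-like cells were 10.8% of the cells and held 43.1% of the Mmp19 and 25.4% of the Adam8 UMIs. Of the 10 genes, 8 had enough counts for a test. Mmp8 and Mmp9 are given as counts, with ratios or bounds from pooled counts and no test. All 8 differed among the classes in edgeR's quasi-likelihood test with Benjamini-Hochberg adjustment (adjusted p at most 8.59e-11), as did 76.5% of all genes tested.

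**Figure D1:**
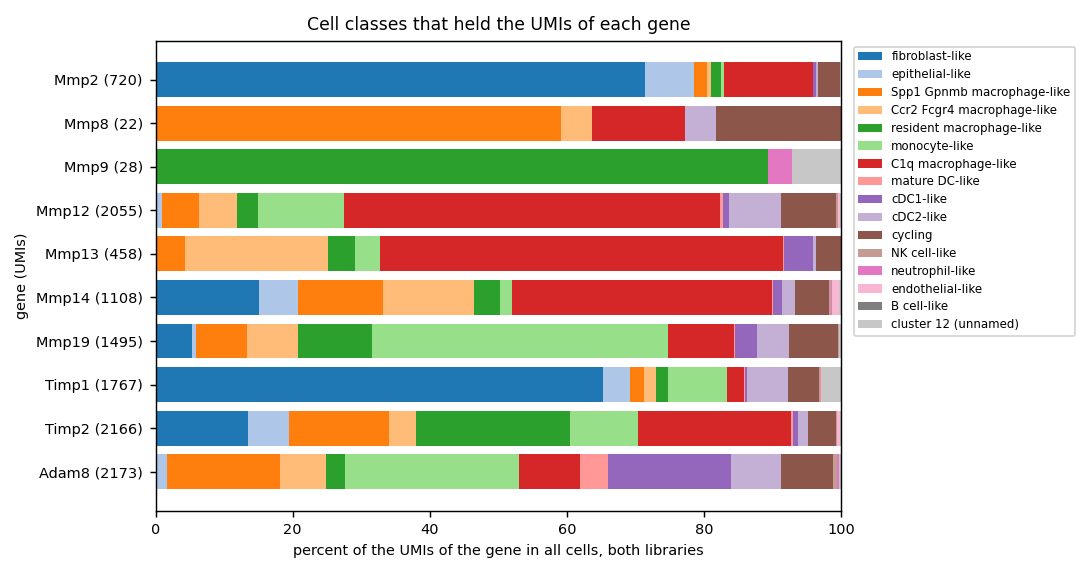
Share of the UMIs of each gene (percent of its UMIs in all cells, both libraries together) held by each cell class, with the number of UMIs beside the gene name. Fibroblast-like cells hold 71.4% of Mmp2 and 65.3% of Timp1 (for Timp1, 121 of 355 UMIs in replicate 1 and 1033 of 1412 in replicate 2), C1q macrophage-like cells 54.9% of Mmp12 and 58.7% of Mmp13, and resident macrophage-like cells 25 of the 28 Mmp9 UMIs.

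Mmp12, the macrophage elastase, was at its highest in C1q macrophage-like cells. In CPM (the UMI count as a share of the class sum, scaled by TMM), its level there was 309 in replicate 1 and 183 in replicate 2. Monocyte-like cells had 82.2 and 161 CPM, Spp1 Gpnmb macrophage-like cells 41.5 and 179 CPM, cycling cells 70.4 and 116 CPM and cDC2-like cells 33.5 and 120 CPM. The replicate ranges of these 4 classes overlapped each other, and all lay below both C1q values. Ccr2 Fcgr4 macrophage-like cells had 66.2 and 46.8 CPM and resident macrophage-like cells 37.3 and 29.6 CPM. Fibroblast-like cells had 0 and 1 UMI of Mmp12. In epithelial-like cells of replicate 1, free RNA alone could give 10.5 of the 17 Mmp12 UMIs, and in replicate 2 it could give 2.09 UMIs where 1 was seen.

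Relative to C1q macrophage-like cells, Mmp12 was lower in each of the other macrophage subsets. Fold changes are on the log2 scale from the fit to both libraries, and values for a single library are log2 ratios of its scaled CPM with a prior count of 2. The log2 fold change was -2.74 in resident macrophage-like cells (SE 0.45, adjusted p = 2.04e-05), lower in both libraries. It was -2.04 in Ccr2 Fcgr4 macrophage-like cells (SE 0.40, adjusted p = 0.00118), -1.46 in Spp1 Gpnmb macrophage-like cells (SE 0.40, adjusted p = 0.0134) and -1.10 in monocyte-like cells (SE 0.36, adjusted p = 0.0231). These 3 calls were lost with DESeq2, another count test, and without the library as a block in the fit. For the Spp1 Gpnmb and the monocyte-like classes the difference sat in replicate 1, with log2 fold changes of -2.83 and -1.88, against -0.03 and -0.18 in replicate 2. cDC1-like cells had 16.9 and 1.73 CPM, and the log2 fold change against cDC2-like cells was -2.69 (SE 0.61, adjusted p = 0.00185), with -0.89 in replicate 1 and -4.94 in replicate 2. The mean of all macrophage subsets did not differ from cDC2-like cells beyond the spread (log2 fold change 0.19, SE 0.35, adjusted p = 0.781).

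Within the C1q macrophage-like class, Mmp12 came almost wholly from 1 of its clusters. Cluster 0 (472 cells, led by genes that include Olfml3, Tmem119 and Vcam1) had 475 and 252 CPM, against 33.8 and 39.3 CPM in cluster 5 (316 cells, led by Il10, Cxcl1 and Cd93). Cluster 0 held 93.4% of the Mmp12 UMIs of the class. The class also holds cluster 15, a much smaller cluster, with 14 of the 1128 UMIs. Cluster 15 was not part of the comparison of clusters 0 and 5. The split was added after the levels had been seen, and cluster 0 was higher than cluster 5 by 3.36 on the log2 scale (SE 0.43, adjusted p = 1.83e-07), where 5.38% of all genes tested were called (2.35% higher and 3.03% lower in cluster 0). With 1900 UMIs drawn from each cell, Mmp12 was detected in 21.0% of cluster 0 cells (95% exact interval 17.4 to 24.9%) and in 5.06% of cluster 5 cells (2.92 to 8.09%). In the full data these shares were 36.2% and 8.54%. The intervals take the cells of both libraries together. Cells are not replicates, so the intervals cover counting error only and carry no test. In epithelial-like cells, which serve as a background for free RNA, the drawn share was 2% (0.414 to 5.73%) and the full share 4.67%. With cluster 0 left out of the C1q class, Mmp12 was no longer called lower in the other classes. Leaving it out removes most of the Mmp12 UMIs of the reference, so this follows largely from the choice of cluster. It and the values that follow are a description, not separate evidence. The log2 fold change was then 1.05 for Spp1 Gpnmb macrophage-like cells, 0.50 for Ccr2 Fcgr4 macrophage-like cells and -0.16 for resident macrophage-like cells, and none of the 3 passed the test. For monocyte-like cells it was 1.31 and passed the test, with Mmp12 higher in monocyte-like cells.

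**Figure D2:**
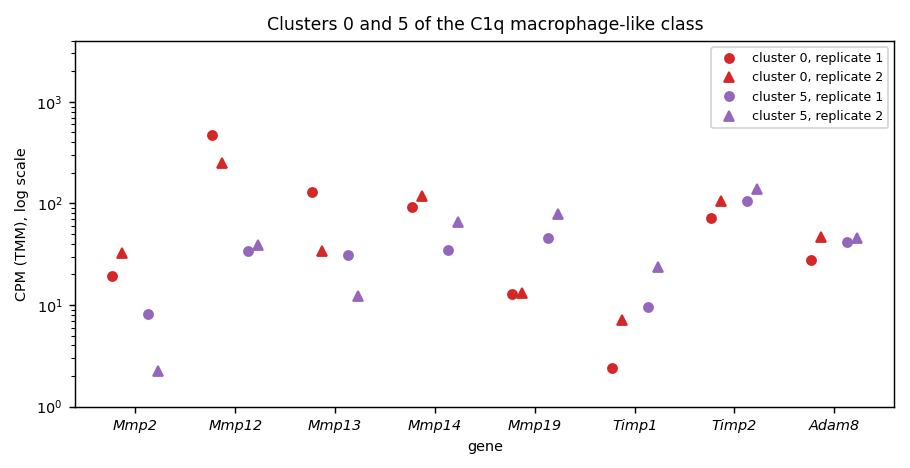
Level of the 8 tested genes in cluster 0 (left of each pair) and cluster 5 (right) of the C1q macrophage-like class, in CPM scaled by TMM on a log axis, with circles for replicate 1 and triangles for replicate 2. Mmp12 is at 475 and 252 CPM in cluster 0 against 33.8 and 39.3 CPM in cluster 5, and Mmp19 shows the opposite order.

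Mmp12 was also unevenly spread over the single cells of the C1q class. In replicate 1 it was detected in 107 of 404 cells and in replicate 2 in 98 of 406 cells. The cell with most UMIs had 79 and 86 of them. The 41 cells with most Mmp12 UMIs in each library held 81.3% and 85.7% of the UMIs of the gene. For Timp2, the inhibitor, the same measure was 50% and 42.3%, from 125 and 189 cells with a UMI. The cells of a library are not replicates, and these shares carry no test.

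**Figure D3:**
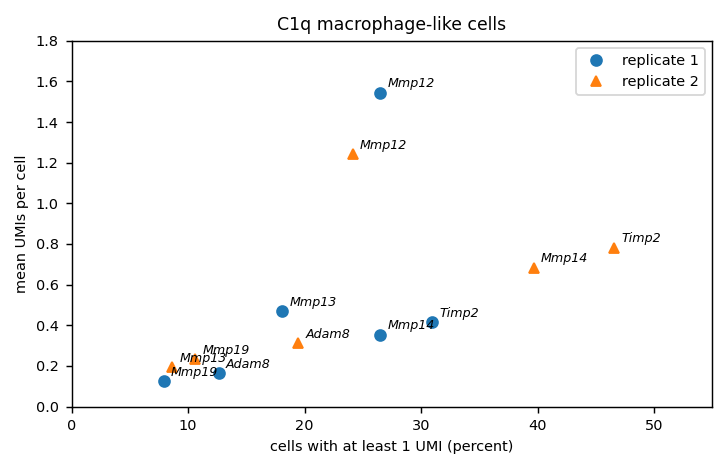
Mean UMIs per cell against the percent of cells with at least 1 UMI, for 6 genes in C1q macrophage-like cells, with circles for replicate 1 and triangles for replicate 2. Mmp12 stands at 1.54 and 1.24 UMIs per cell with 26.5% and 24.1% of cells, and Timp2 at 0.416 and 0.781 UMIs per cell with 30.9% and 46.6% of cells.

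Mmp13, collagenase 3, also had its highest mean in the C1q class, but unlike Mmp12 it was not called lower in the Ccr2 Fcgr4 subset. It had 94.2 and 28.7 CPM in C1q macrophage-like cells and 54.6 and 37.4 CPM in Ccr2 Fcgr4 macrophage-like cells. These ranges overlapped, and the log2 fold change of the Ccr2 Fcgr4 subset was -0.35 (SE 0.36, adjusted p = 0.828). In replicate 2, 13 of the 20 Mmp13 UMIs of the Ccr2 Fcgr4 subset came from 1 cell, so its value there rests largely on that cell. Spp1 Gpnmb macrophage-like cells had 13.8 and 13.2 CPM, resident macrophage-like cells 11.9 and 3.71 CPM and monocyte-like cells 3.32 and 13.2 CPM, all below both C1q values. Mmp13 fell in all 3 relative to C1q macrophage-like cells. The log2 fold change was -2.23 in the Spp1 Gpnmb subset (SE 0.49, adjusted p = 0.00151), -2.71 in the resident subset (SE 0.50, adjusted p = 0.000146) and -2.84 in monocyte-like cells (SE 0.48, adjusted p = 1.3e-05). DESeq2 did not call any of these 3, and the calls in the Spp1 Gpnmb and resident subsets were lost without cluster 0. The Spp1 Gpnmb call was also lost without the library block and with cells assigned by detected markers. The library values were far apart in monocyte-like cells, at -4.11 in replicate 1 and -1.0 in replicate 2, and in the Spp1 Gpnmb subset, at -2.58 and -1.01. Of the 13 UMIs of monocyte-like cells in replicate 2, 12 came from 1 cell.

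Dendritic and stromal cells held little Mmp13. All macrophage subsets together had 401 UMIs against 2 in cDC2-like cells, a ratio of the pooled levels of 39.6 (95% counting interval 10.9 to 328). Of the 401, 269 came from C1q macrophage-like cells. The test used the equal-weight mean of the subsets instead, and that difference passed (adjusted p = 8.01e-05). cDC1-like cells had 19 UMIs in replicate 1 and 0 in replicate 2, which did not pass the test against cDC2-like cells (adjusted p = 0.0583). Fibroblast-like cells had 0 UMIs in both libraries. Taking 3 counts over both libraries as the limit, Mmp13 was at least 7.89-fold below the pooled level of the macrophage subsets. Within the C1q class, cluster 0 had 130 and 33.9 CPM of Mmp13 against 31.1 and 12.4 CPM in cluster 5 (log2 fold change 1.81, SE 0.41, adjusted p = 0.00332). The small cluster 15 held 10 of the 269 Mmp13 UMIs of the class, and its level was not compared with theirs. Of the 205 C1q macrophage-like cells with Mmp12, 24.4% also had Mmp13, against 9.59% of the other cells of the class. The cells with Mmp12 also had more UMIs in all, with a median of 6741 against 5524, and the part of this depth in the overlap was not tested.

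Mmp8, the neutrophil collagenase, was rare and lay mostly in the Spp1 Gpnmb subset. That subset had 8 and 5 UMIs, against 2 and 1 in C1q macrophage-like cells, a ratio of the pooled levels of 14.8 (95% counting interval 4.08 to 81.2). In the Spp1 Gpnmb subset the Mmp8 UMIs lay in 7 cells of replicate 1 and 3 cells of replicate 2, where 1 cell held 3 of the 5. The intervals given here cover counting error only and take each UMI as independent. The other 6 UMIs lay in cycling cells (4, of which 3 were from 1 cell), cDC2-like cells (1) and Ccr2 Fcgr4 macrophage-like cells (1). The 8 neutrophil markers summed to 25.6 and 36.7 unscaled CPM in the Spp1 Gpnmb subset, against 27.0 and 34.6 in C1q macrophage-like cells. In neutrophil-like cells of replicate 2 they summed to 53701 unscaled CPM. Ly6g and Retnlg were at 0 in both macrophage classes, but also in the neutrophil-like cells, so these zeros do not separate the classes. The 16 neutrophil-like cells, all from replicate 2, had no UMI of Mmp8, which allows a level up to 75.1 CPM.

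Mmp2, gelatinase A, was highest in fibroblast-like cells. Fibroblast-like cells had 811 and 963 CPM, against 8.56 CPM as the mean of the 4 macrophage subsets. The log2 fold change was 6.94 (SE 0.26, adjusted p = 7.06e-24), higher in both libraries. Mmp2 was detected in 22 of 23 and 24 of 25 fibroblast-like cells. C1q macrophage-like cells followed with 14.9 and 22.9 CPM. Ccr2 Fcgr4 macrophage-like cells had 1.46 and 3.74 CPM, lower than C1q macrophage-like cells (log2 fold change -3.10, SE 0.72, adjusted p = 0.0087). That call was lost with DESeq2 and without the library block. Monocyte-like cells had 1 and 2 UMIs, against 30 and 63 in C1q macrophage-like cells, a ratio of the pooled levels of 0.0702 (95% counting interval 0.0142 to 0.212) that passed the test (adjusted p = 0.000214). Cluster 0 again stood above cluster 5, with 19.2 and 32.8 CPM against 8.10 and 2.25 CPM (log2 fold change 2.41, SE 0.61, adjusted p = 0.00876). Without cluster 0, neither of these calls against the C1q class remained.

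In epithelial-like cells the 2 libraries went opposite ways for Mmp2. Replicate 1 had 51 UMIs, all from 8 cells, and replicate 2 had 1 UMI. The fit called a rise against all macrophage subsets (log2 fold change 1.48, SE 0.43, adjusted p = 0.00364), but the library values were 1.74 in replicate 1 and -1.05 in replicate 2, and DESeq2 did not call it. The 10 fibroblast markers summed to 962 and 375 unscaled CPM in epithelial-like cells, against 23.4 to 59.2 in the macrophage subsets and 48902 and 38877 in fibroblast-like cells. No fibroblast marker was at 0 in epithelial-like cells of replicate 1, and their part in the Mmp2 value was not tested.

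Mmp9, gelatinase B, had 28 UMIs in all. Resident macrophage-like cells had 23 UMIs in 17 of 293 cells of replicate 1 and 2 UMIs in 1 of 47 cells of replicate 2. C1q macrophage-like cells had 0 UMIs in both libraries, so the pooled level of the resident subset was at least 23.5-fold higher, taking 3 counts over both libraries as the limit. That bound rests mostly on replicate 1. In replicate 2 the resident subset was at 7.41 CPM, below the 11.1 CPM that 3 counts would give there. All other classes of the fit were also at 0. The remaining 3 UMIs lay outside it, with 1 in neutrophil-like cells and 2 in an unnamed cluster led by Cd7 and Ly6c2. The neutrophil markers summed to 23.7 and 28.3 unscaled CPM in resident macrophage-like cells, against 27.0 and 34.6 in C1q macrophage-like cells.

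Mmp14, which is anchored in the cell membrane, was highest in fibroblast-like cells and followed in 3 macrophage subsets. It had 312 and 273 CPM in fibroblast-like cells, against 72.9 CPM as the mean of the macrophage subsets (log2 fold change 2.19, SE 0.19, adjusted p = 1.77e-12). Spp1 Gpnmb macrophage-like cells had 99.9 and 94.7 CPM, C1q macrophage-like cells 70.9 and 101 CPM and Ccr2 Fcgr4 macrophage-like cells 75.0 and 82.4 CPM, and the C1q range covered those of the other subsets. Resident macrophage-like cells had 22.5 and 37.1 CPM, lower than C1q macrophage-like cells (log2 fold change -1.75, SE 0.29, adjusted p = 3.08e-05). Monocyte-like cells had 9.97 and 8.11 CPM, also lower (log2 fold change -3.22, SE 0.32, adjusted p = 1.29e-10), with -2.58 in replicate 1 and -3.31 in replicate 2. Dendritic classes lay at 4.11 to 12 CPM, and all macrophage subsets stood above cDC2-like cells by 2.61 (SE 0.31, adjusted p = 6.36e-09). Epithelial-like cells had 24.6 and 27.3 CPM, and Mmp14 fell there relative to all macrophage subsets (log2 fold change -1.32, SE 0.24, adjusted p = 1.16e-05). Without cluster 0, the resident subset was no longer called, and the Spp1 Gpnmb subset was called higher than the rest of the C1q class, at 0.88.

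Mmp19, a metalloproteinase of broad substrate range, was highest in the monocyte-like class. Monocyte-like cells had 289 and 301 CPM, against 24.8 and 34.2 CPM in C1q macrophage-like cells. The log2 fold change was 3.34 (SE 0.31, adjusted p = 2.1e-11), higher in both libraries. No other class overlapped with the monocyte-like values. With 1900 UMIs drawn per cell, Mmp19 was detected in 28.7% of monocyte-like cells (23.9 to 33.8%), against 4.94% of C1q macrophage-like cells (3.55 to 6.66%) and 0 of 150 epithelial-like cells (up to 2.43%). Without drawing, these shares were 57.3%, 9.26% and 2.67%. Here too the intervals pool the cells of both libraries, which are not replicates, and carry no test. Resident macrophage-like cells had 102 and 63.0 CPM and Spp1 Gpnmb macrophage-like cells 83.1 and 73.7 CPM. Both rose relative to C1q macrophage-like cells, the resident subset by a log2 fold change of 1.73 (SE 0.34, adjusted p = 0.000363) and the Spp1 Gpnmb subset by 1.5 (SE 0.35, adjusted p = 0.00308). In replicate 1 and replicate 2 the values were 1.94 and 0.84 for the resident subset and 1.66 and 1.06 for the Spp1 Gpnmb subset. DESeq2 called neither, neither was called without cluster 0, and the Spp1 Gpnmb call was also lost without the library block. Ccr2 Fcgr4 macrophage-like cells had 48.0 and 84.2 CPM, which did not pass (log2 fold change 1.10, SE 0.35, adjusted p = 0.0927).

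The order within the C1q class was the opposite of that of Mmp12. Cluster 0 had 12.8 and 13.1 CPM of Mmp19, against 45.9 and 78.7 CPM in cluster 5 (log2 fold change -2.27, SE 0.41, adjusted p = 0.000163). Fibroblast-like cells had 70.7 and 198 CPM, against 64.1 CPM as the mean of the macrophage subsets (log2 fold change 1.10, SE 0.31, adjusted p = 0.00498), with 0.31 in replicate 1 and 1.67 in replicate 2. Epithelial-like cells had 8 and 0 UMIs, lower than all macrophage subsets (log2 fold change -4.12, SE 0.49, adjusted p = 2.73e-09), with -3.10 and -4.79 in the 2 libraries. All macrophage subsets stood 0.84 above cDC2-like cells (SE 0.31, adjusted p = 0.0408), with 1.33 in replicate 1 and 0.31 in replicate 2, a call that was lost with DESeq2 and without the library block.

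**Figure D4:**
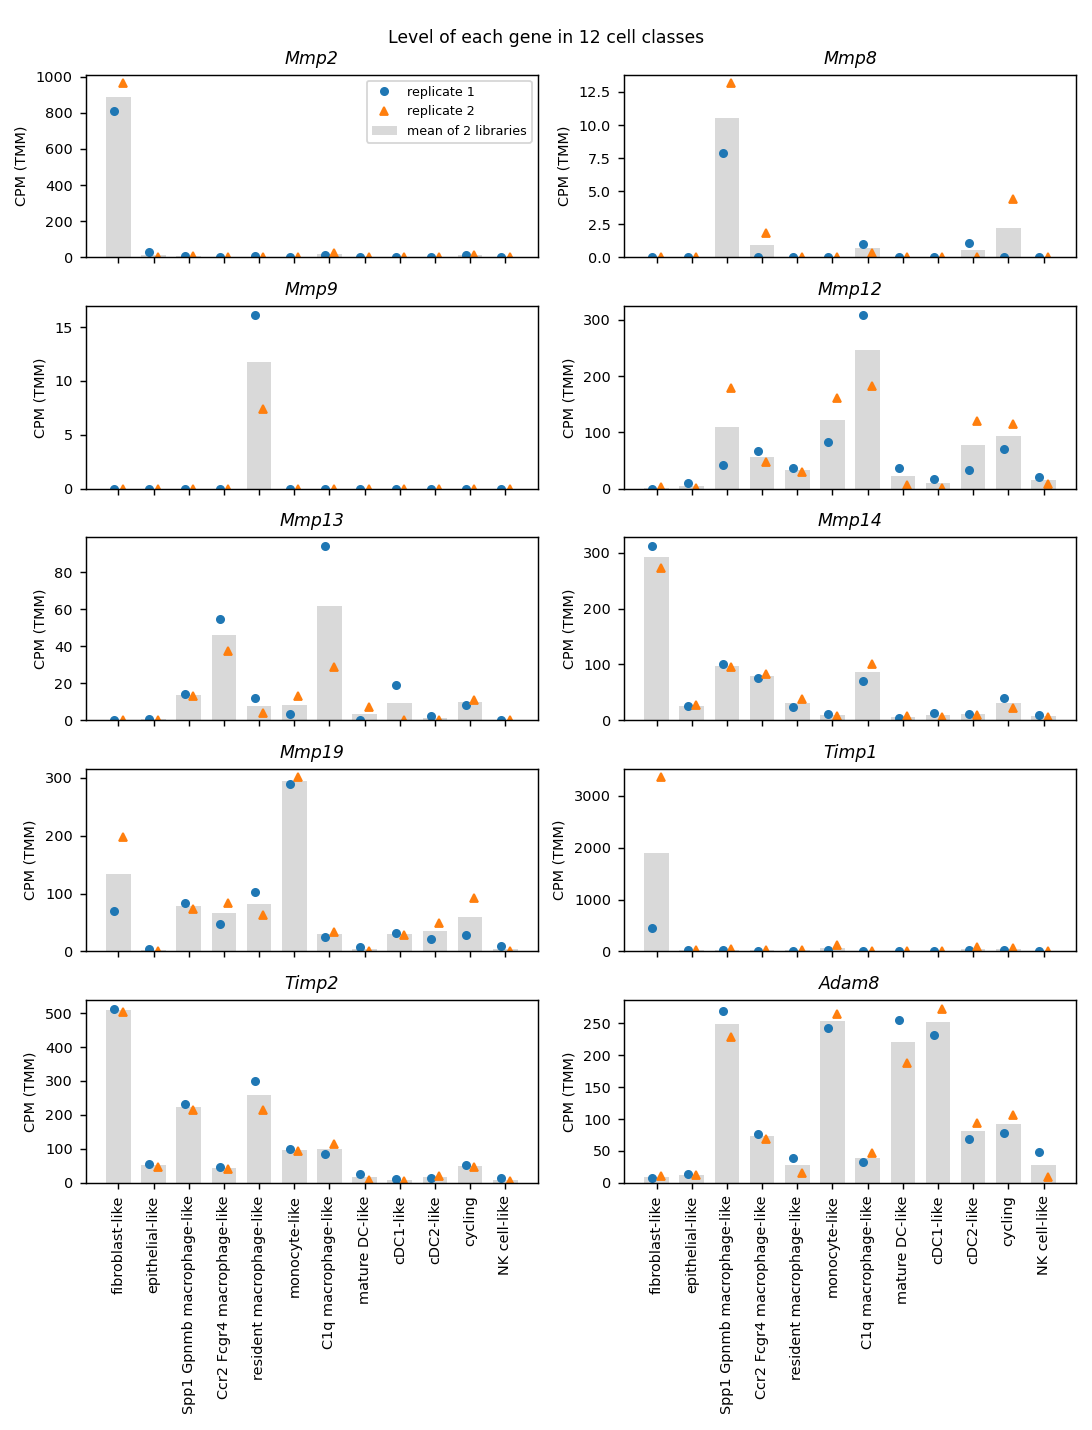
Level of each gene in the 12 cell classes of the fit, in CPM scaled by TMM, with grey bars for the mean of the 2 libraries, circles for replicate 1 and triangles for replicate 2; the vertical scale differs between genes. The 2 libraries lie close together for Adam8 and Timp2 in most classes, and far apart for Timp1 in fibroblast-like cells (450 and 3361 CPM).

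Timp1, an inhibitor that is secreted by many stromal cells, was highest in fibroblast-like cells, with 450 CPM in replicate 1 and 3361 CPM in replicate 2. The mean of the macrophage subsets was 20.6 CPM, and the log2 fold change was 6.35 (SE 0.26, adjusted p = 1.47e-23), with 5.01 in replicate 1 and 6.91 in replicate 2. The gap between the libraries was not limited to fibroblast-like cells: Timp1 was higher in replicate 2 in 9 of the 12 classes, with a median ratio of 1.90 over the classes. Among barcodes without cells, Timp1 made up 41.2 and 199 unscaled CPM. Outside the fibroblast-like class, monocyte-like cells had 30.7 and 116 CPM, cDC2-like cells 24.5 and 81.5 CPM and cycling cells 34.6 and 56.3 CPM, with overlapping ranges.

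Relative to C1q macrophage-like cells, which had 4.96 and 12.4 CPM of Timp1, monocyte-like cells rose by a log2 fold change of 3.0 (SE 0.45, adjusted p = 1.74e-06), with 2.19 in replicate 1 and 3.01 in replicate 2. Spp1 Gpnmb macrophage-like cells had 17.8 and 47.4 CPM and rose by 1.91 (SE 0.58, adjusted p = 0.0284), a call that was lost with DESeq2, without the library block and without cluster 0. With cells assigned by detected markers in place of clusters, which also changed the C1q class, the value was -0.55. Resident and Ccr2 Fcgr4 macrophage-like cells, with log2 fold changes of 1.61 and 1.18, did not pass. All macrophage subsets stood below cDC2-like cells (log2 fold change -1.40, SE 0.36, adjusted p = 0.00282), with -0.93 and -1.58 in the 2 libraries, a call lost with DESeq2. cDC1-like cells had 3 and 2 UMIs, against 22 and 84 in cDC2-like cells, and the fitted log2 fold change was -3.79 (SE 0.74, adjusted p = 0.000312). The fall was present in both libraries, at -2.35 and -3.87.

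Timp2, the inhibitor that also serves Mmp14 in the activation of Mmp2, was high in fibroblast-like cells and in 2 macrophage subsets. Fibroblast-like cells had 513 and 504 CPM, against 156 CPM as the mean of the macrophage subsets (log2 fold change 2.00, SE 0.16, adjusted p = 1.44e-13). Resident macrophage-like cells had 301 and 215 CPM and Spp1 Gpnmb macrophage-like cells 231 and 216 CPM, with overlapping ranges, against 83.3 and 115 CPM in C1q macrophage-like cells. The resident subset rose by a log2 fold change of 1.41 (SE 0.21, adjusted p = 3.03e-06) and the Spp1 Gpnmb subset by 1.16 (SE 0.21, adjusted p = 0.000103). Ccr2 Fcgr4 macrophage-like cells had 45.9 and 41.2 CPM and fell (log2 fold change -1.19, SE 0.24, adjusted p = 0.00222). These 3 calls held with DESeq2, without the library block and without cluster 0. Values for replicate 1 and replicate 2 were 1.82 and 0.89 in the resident subset, 1.45 and 0.89 in the Spp1 Gpnmb subset, and -0.83 and -1.44 in the Ccr2 Fcgr4 subset. With cells assigned by detected markers in place of clusters, which also changed the C1q class, the Spp1 Gpnmb value was -0.56. Monocyte-like cells, at 101 and 94.3 CPM, did not differ from C1q macrophage-like cells beyond the spread (log2 fold change -0.04, SE 0.21, adjusted p = 0.941). All macrophage subsets stood 2.88 above cDC2-like cells on the log2 scale (SE 0.25, adjusted p = 6.12e-12), with 3.06 and 2.46 in the 2 libraries, and cDC2-like cells had 13.4 and 20.4 CPM. Epithelial-like cells had 55 and 47.4 CPM and fell relative to all macrophage subsets (log2 fold change -1.30, SE 0.20, adjusted p = 5.38e-07).

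Adam8, a metalloprotease-disintegrin of myeloid cells, had its highest levels in 4 myeloid classes, with overlapping ranges. Monocyte-like cells had 243 and 265 CPM, cDC1-like cells 231 and 273 CPM, Spp1 Gpnmb macrophage-like cells 269 and 229 CPM and mature DC-like cells 255 and 187 CPM, and each of these ranges overlapped the next in this order. The next class, cycling cells, had 77.3 and 107 CPM. Relative to C1q macrophage-like cells, which had 32.7 and 46.2 CPM, Adam8 rose in monocyte-like cells by a log2 fold change of 2.67 (SE 0.24, adjusted p = 7.62e-12) and in Spp1 Gpnmb macrophage-like cells by 2.66 (SE 0.24, adjusted p = 2.36e-10). Relative to cDC2-like cells, which had 69.1 and 93.1 CPM, it rose in cDC1-like cells by 1.62 (SE 0.24, adjusted p = 4.72e-06) and in mature DC-like cells by 1.48 (SE 0.29, adjusted p = 0.000206). Each of these 4 differences had the same direction in both libraries, with 2.95 and 2.25 in the Spp1 Gpnmb subset and 1.85 and 0.99 in mature DC-like cells for replicate 1 and replicate 2. With 1900 UMIs drawn per cell, Adam8 was detected in 38.8% of Spp1 Gpnmb macrophage-like cells (30.3 to 47.7%), against 4.81% of C1q macrophage-like cells (3.45 to 6.52%) and 2% of epithelial-like cells (0.414 to 5.73%). Without drawing, the shares were 80.6%, 16.0% and 13.3%. Again the intervals pool the cells of both libraries, which are not replicates, and carry no test. Resident macrophage-like cells had 39.4 and 14.8 CPM and did not pass against C1q macrophage-like cells (log2 fold change -0.22, SE 0.31, adjusted p = 0.770). Adam8 fell relative to all macrophage subsets in fibroblast-like cells (log2 fold change -3.02, with -2.95 in replicate 1 and -2.34 in replicate 2) and in epithelial-like cells (-2.43) (adjusted p = 5.27e-06 and 3.04e-09). Clusters 0 and 5 did not differ beyond the spread for Adam8 (log2 fold change -0.20, SE 0.30) or Timp2 (-0.45, SE 0.22).

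The 8 tested genes were counted in each comparison with C1q macrophage-like cells, and no difference between these comparisons was tested. In Spp1 Gpnmb macrophage-like cells 4 of the 8 rose (Adam8, Timp1, Mmp19 and Timp2) and 2 fell (Mmp13 and Mmp12), where 8.92% of all genes tested were called (3.87% higher and 5.06% lower), and the median log2 fold change was 0.67, against -0.03 over all genes. The count of 6 called was 2 without the library block, 2 with DESeq2 and 2 with cells assigned by detected markers. In Ccr2 Fcgr4 macrophage-like cells none rose and 3 fell (Mmp2, Mmp12 and Timp2), with 2.23% of all genes called (1.12% higher and 1.1% lower), and the medians were -0.25 for these genes and -0.01 over all. The count of 3 was 1 with DESeq2 and 1 without the library block. In resident macrophage-like cells 2 rose (Mmp19 and Timp2) and 3 fell (Mmp12, Mmp13 and Mmp14), with 10.6% called (5.2% higher and 5.43% lower), and the medians were -0.89 and 0.00. The count of 5 was 3 with DESeq2. In monocyte-like cells 3 rose (Mmp19, Timp1 and Adam8) and 4 fell (Mmp2, Mmp14, Mmp13 and Mmp12), with 21.7% called (11.1% higher and 10.6% lower), and the medians were -0.57 and -0.03. The 4 comparisons share the C1q macrophage-like sums, so their results are not independent of each other. The shares of all genes called refer to the main fit, not to the alternatives.

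**Figure D5:**
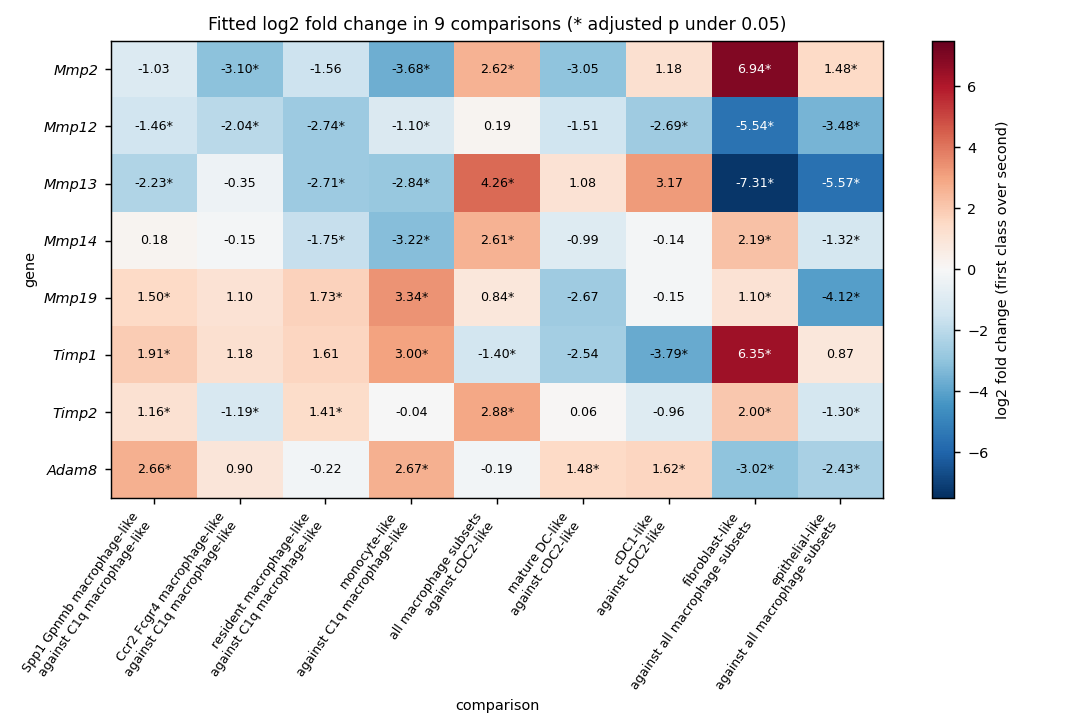
Fitted log2 fold change of the 8 tested genes (rows) in the 9 comparisons (columns), first class over second, with red for higher and blue for lower in the first class and an asterisk for an adjusted p under 0.05; values of classes with 3 or fewer UMIs, such as Mmp13 in fibroblast-like cells, depend on the prior of the fit and are no measure of size. Mmp12 and Mmp13 are blue in each of the comparisons with the C1q class, and 3 genes are red in monocyte-like cells (Mmp19, Timp1 and Adam8).

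In the comparisons beyond the macrophages, 5 of the 8 genes rose in all macrophage subsets relative to cDC2-like cells (Mmp13, Timp2, Mmp2, Mmp14 and Mmp19) and Timp1 fell, where 25.9% of all genes tested were called (11.5% higher and 14.3% lower). Among these, Mmp2 had 121 UMIs in the macrophage subsets and 2 in cDC2-like cells, a ratio of the pooled levels of 12 (95% counting interval 3.24 to 99.8). The test on the equal-weight mean of the subsets gave an adjusted p of 0.0449. Mmp2 had library values of 2.05 and 0.87, and its call was lost with DESeq2 and without the library block. In mature DC-like cells Adam8 alone passed the test against cDC2-like cells, with 12.7% of all genes called (5.51% higher and 7.18% lower). In cDC1-like cells Adam8 rose and Mmp12 and Timp1 fell, with 9.63% called (3.41% higher and 6.22% lower). In fibroblast-like cells 5 rose relative to all macrophage subsets (Mmp2, Timp1, Mmp14, Timp2 and Mmp19) and 3 fell (Mmp13, Mmp12 and Adam8), with 35.8% called (19.9% higher and 15.9% lower). In epithelial-like cells Mmp2 was called higher, as described above, and 6 fell (Mmp13, Mmp19, Mmp12, Adam8, Mmp14 and Timp2), with 51.1% called (28.5% higher and 22.6% lower). Timp1 did not pass there (log2 fold change 0.87, SE 0.39, adjusted p = 0.0576).

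Other genes of the same proteolytic systems were taken from 4 lists of 60 genes, of which 42 could be tested. In fibroblast-like cells 29 of the 42 rose and 4 fell relative to all macrophage subsets, where 35.8% of all genes tested were called. Among the other metalloproteinases, Mmp3, a stromelysin, had 570 UMIs in fibroblast-like cells against 15 in the macrophage subsets (log2 fold change 9.21, with 7.0 in replicate 1 and 8.78 in replicate 2), and Mmp23 had 94 against 4 (8.93). Plat, the tissue plasminogen activator, rose by 8.04, while Plau, the urokinase, had 3 UMIs in fibroblast-like cells against 296, a ratio of the pooled levels of 0.172 (95% counting interval 0.0352 to 0.506), with library values of -2.41 and -0.89. In epithelial-like cells 17 rose and 12 fell (51.1% of all genes called), with Lcn2, a protein that binds Mmp9, higher by 7.56 (7.07 and 7.89 in the libraries) and Timp3, another tissue inhibitor, higher by 4.87. Mmp15, a membrane-bound metalloproteinase, had 47 UMIs in epithelial-like cells and 0 in the macrophage subsets. That is at least 62.6-fold above the pooled level of these subsets, with library values of 3.47 and 2.44.

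In monocyte-like cells S100a10 and Anxa2, which together form a plasminogen receptor at the cell surface, rose by log2 fold changes of 3.43 and 3.05 relative to C1q macrophage-like cells. In all, 7 of the 42 rose and 7 fell there, with 21.7% of all genes called. In Spp1 Gpnmb macrophage-like cells 5 rose and 3 fell, with 8.92% of all genes called. Anxa2 rose there by 1.99 and S100a10 by 1.49 (0.94 in replicate 1 and 1.95 in replicate 2), and Plau had a log2 fold change of -1.37 (-1.46 and -0.90). In resident macrophage-like cells 5 rose and 1 fell, with 10.6% of all genes called. S100a10 rose there by 1.83 and Serpinb6a by 2.01 (2.54 in replicate 1 and 1.33 in replicate 2), and Plaur, the urokinase receptor, fell (log2 fold change -1.45). In Ccr2 Fcgr4 macrophage-like cells Thbs1 rose by 1.98, and 3 genes fell (Serpinb6a at -1.82, Plau at -1.47 and Cd63 at -1.48), with 2.23% of all genes called. Between replicate 1 and replicate 2 the values were -1.35 and -1.96 for Serpinb6a and -0.96 and -2.02 for Cd63. All macrophage subsets stood above cDC2-like cells for Plau (3.30, with 3.23 in replicate 1 and 1.65 in replicate 2) and Cd63 (3.63). They stood below them for Plat (log2 fold change -4.61, with -2.47 and -3.82), and 11 of the 42 rose and 6 fell, with 25.9% of all genes called. In mature DC-like cells 6 rose and 7 fell relative to cDC2-like cells, with 12.7% of all genes called. Mmp23 was at 4.46 there (4.14 and 3.39 in the libraries), Mmp25 at 3.37 and Plaur at -2.89 (-2.21 and -3.95). In cDC1-like cells 2 rose (Adam19 at 2.48 and Serpinf1 at 3.05) and 4 fell, with 9.63% of all genes called. The calls named in these 2 paragraphs had an adjusted p under 0.05 and the same direction in both libraries.

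Across the 24 class sums, genes like each of these in their log2 CPM were found by Pearson's r, as a description over classes that share 2 libraries. Among the 3 genes most like Timp2 were Ecm1 (r = 0.920) and Idh1 (0.887), and Mmp2 was closest to Sgce (0.908), Plpp3 (0.903) and Col4a2 (0.903). Mmp13 was closest to Klra2 (0.886), Mmp19 to Emilin2 (0.876), Timp1 to Gm42418 (0.874), Mmp12 to AI504432 (0.867), Mmp14 to Cep162 (0.853) and Adam8 to Atp5l (0.832). Among the genes themselves, Timp2 and Mmp14 had r = 0.776, Mmp2 and Mmp14 had 0.772, Mmp2 and Timp1 had 0.733, Timp1 and Timp2 had 0.689, Mmp2 and Timp2 had 0.666 and Mmp12 and Mmp13 had 0.656. Fibroblast-like cells had the highest mean for each gene of these pairs except the last.

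Some of the genes share bases with others, which limits how the counts can be read. Mmp12 overlaps Mmp1b, Timp1 overlaps Syn1, and Mmp19 overlaps Gm47093 and Tmem198b, each on the opposite strand. Timp2 overlaps Cep295nl on its own strand, and Adam8 overlaps Mir7062 on its own strand and Gm16201 on the other. The sources used here do not state how the counting treated strand and overlap. In GRCm38, Mmp2 lies at chr8:92827291-92853420 (plus strand), Mmp9 at chr2:164940780-164955850 (plus), Mmp14 at chr14:54431612-54445364 (plus) and Mmp19 at chr10:128790910-128800824 (plus). Timp1 lies at chrX:20870166-20874735 (plus), Timp2 at chr11:118301069-118355740 (minus) and Adam8 at chr7:139978932-139992562 (minus), and all are protein-coding.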

How the data were processed

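Single-cell RNA was measured in 2 libraries made with 10x Chromium 3′ v2 chemistry. The counts the authors deposited are raw UMI numbers for each gene and barcode, made with Cell Ranger 2.2.0 against mm10 per the submitters' processing notes, with 737280 barcodes in each library. The sources used here do not state the annotation or the treatment of strand.

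Cells were barcodes past the Cell Ranger 2 threshold (2112 and 1905 UMIs in replicate 1 and replicate 2), with at least 200 genes and at most 10% mitochondrial UMIs. The threshold kept 2013 and 1318 barcodes, the mitochondrial limit removed 83 and 90 and the gene limit 0 and 1. The highest Scrublet scores, at 0.8% per 1000 cells, were removed as doublets (32 and 14). The libraries shared 2 barcodes. Genes were divided into 14069 used for clustering and 13929 held out, and the 10 genes, the lists and Itgax were held out. Clusters came from 2000 variable genes, 30 principal components, 20 neighbours and Leiden resolution 1.0 (scanpy 1.11.5, leidenalg 0.10.2), and were named where at least 3 fixed markers were raised. Counts were summed per library and class. The 24 sums held 154971 to 2945321 UMIs and were fitted with edgeR 4.0.16 (limma 3.58.1, R 4.3.3): filterByExpr, TMM factors of 0.791 to 1.41, the quasi-likelihood test with the library as a block, and Benjamini-Hochberg adjustment over the 4807 held-out genes tested, at 0.05. With 11 residual degrees of freedom, the classes share 1 estimate of the spread. In the fit, the library values and the mean levels, "all macrophage subsets" is the equal-weight mean of 4 classes. Ratios of pooled levels, their intervals and the bounds for a count of 0 use summed UMIs over summed scaled class sizes. In these, larger classes weigh more, so they are not the quantity that the adjusted p refers to.

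The sums of 1 library come from the same capture and are paired by that origin. The correlation of their deviations from the class means was 0.0237 to 0.254, with a median of 0.0812. On simulated counts for the monocyte-like comparison (4877 genes), 64.6% of genes with a log2 change of 1 were called. With a log2 change of 2, 97% were called, and 3.59% of calls were unchanged genes. These rates hold only for the spread given to the simulated counts. Whether the 8 tested genes share that spread was not tested, so the rates are not error rates for these genes. For 26 of their 46 called pairs the libraries were over 1.5 times apart, and DESeq2 kept 32 of the 46.

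For shares of cells, 1900 UMIs were drawn per cell, with exact 95% intervals over the cells of both libraries together, which are not replicates. Intervals and the limit of 3 counts cover counting error only. Free RNA was bounded against barcodes without cells, from C1q genes in epithelial-like and fibroblast-like cells and from epithelial genes in all other classes. The genes and lists were chosen with earlier results of these data known. The 10 genes are always named. From the other lists, the up to 2 largest changes per list and direction in a comparison, called with 1 sign in both libraries, could be named. The genes of like pattern are the highest correlations among held-out genes. The alternatives were DESeq2 1.42.0, DESeq2 size factors in edgeR, no library block and no count filter. They also included a threshold of 1000 UMIs, no doublet removal, resolution 2.0, assignment of cells by detected markers and each library alone. The assignment by detected markers gave each cell the class with the largest share of its markers seen, with at least 3, and left ties unnamed. It put 981 and 629 cells of replicate 1 and replicate 2 in the C1q class. The Spp1 Gpnmb class then had 27 and 23 cells. Leaving out clusters 0 or 5, and comparing them, was added after the data had been seen. Cluster 0 held most of the C1q class UMIs of Mmp2, Mmp12, Mmp13 and Mmp14. Changes in their calls without it follow largely from that choice. Some results that met these rules are not reported here.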

Additional observations from a re-analysis of the deposited data

Results flagged for a closer look

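Some of the genes had more than the limit of 3 UMIs in groups of cells too small, or of no assigned class, for the comparisons. In the unnamed cluster of 62 cells led by Cd7, Ifitm1 and Ly6c2, Timp1 had 50 UMIs, with 11 in replicate 1 and 39 in replicate 2. Of the 11, 8 came from 1 cell. Adam8 had 6 UMIs and Mmp19 had 4 UMIs in the same cluster. In the 15 endothelial-like cells Mmp14 had 11 UMIs (6 and 5), and Timp2 had 10 UMIs (6 and 4). Mmp12 had 5 UMIs in endothelial-like cells of replicate 1, all from 1 cell, and free RNA could give 2.39 in these cells together. In the 16 neutrophil-like cells, all of replicate 2, Adam8 had 6 UMIs. None of these values was tested.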

How the results depend on the processing

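With 2 libraries the number of animals and the cell counts of small classes limit what can be read. Of the 72 pairs of gene and comparison, 46 were called, where 2.23% to 51.1% of all genes tested were called in the 9 comparisons. Every called pair kept its call with DESeq2 size factors and with no count filter. The pairs kept were 45 of 46 with no doublet removal, 42 of 43 with a threshold of 1000 UMIs and 40 of 43 at resolution 2.0. They were 37 of 46 without the library block and 32 of 46 with DESeq2. With cells assigned by detected markers 20 of 31 were kept, and 3 changed sign. The Ccr2 Fcgr4 comparison could not be fitted at 1000 UMIs, at resolution 2.0 or with detected markers. The monocyte-like and resident comparisons could not be fitted with detected markers either. A single library leaves no residual degrees of freedom, so no count of calls exists there. Alone, each library gave the sign of the fit for the called pairs, except Mmp2 in epithelial-like cells, at -1.05 without replicate 1 and 1.74 without replicate 2. For 26 of the 46 pairs the libraries were over 1.5 times apart.

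The counts of called genes moved as follows. The shares of all genes called under these settings are not given here. Whether the moves are particular to the 8 tested genes was not tested. Without the library block (the unpaired fit) 2 were called in the Spp1 Gpnmb comparison, against 6, and 1 in the Ccr2 Fcgr4 comparison, against 3. DESeq2 called 2 in the Spp1 Gpnmb, 1 in the Ccr2 Fcgr4, 3 in the resident (against 5) and 3 in the macrophage to cDC2-like comparison (against 6). With no count filter 5 were called in the Ccr2 Fcgr4, 8 in the resident and 4 in the mature DC-like comparison (against 1), where Mmp8 and Mmp9 were tested too. Resolution 2.0 gave 2 in mature DC-like cells. Assignment by detected markers gave 2 in the Spp1 Gpnmb and 3 in the mature DC-like comparison. Without cluster 0 the counts were 3 (Spp1 Gpnmb), 1 (Ccr2 Fcgr4) and 1 (resident), and without cluster 5 the Ccr2 Fcgr4 count was 5. The cause was not tested.

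These log2 fold changes reversed sign. Against C1q macrophage-like cells without cluster 0, Mmp2 was 0.67 and Mmp12 1.05 in Spp1 Gpnmb macrophage-like cells, Mmp12 0.50, Mmp13 0.74 and Mmp14 0.55 in Ccr2 Fcgr4 macrophage-like cells, Mmp2 0.13 in resident macrophage-like cells and Mmp12 1.31 in monocyte-like cells. Without cluster 5, Mmp14 was -0.12 in the Spp1 Gpnmb subset and Timp2 0.12 in monocyte-like cells. With cells assigned by detected markers, Mmp14 was -0.59, Timp1 -0.55 and Timp2 -0.56 in the Spp1 Gpnmb subset. Under the same assignment Mmp2 was 4.78 and Mmp14 2.88 in mature DC-like cells. It also gave Mmp2 -0.20 and Mmp14 0.17 in cDC1-like cells and Mmp2 -0.19 in epithelial-like cells. Adam8 in all macrophage subsets against cDC2-like cells was not called in the main fit. Its value was 0.69 with detected markers, 0.27 at resolution 2.0, 0.0375 with a threshold of 1000 UMIs and 0.0377 with no doublet removal. At resolution 2.0 Adam8 was 0.13 in the resident subset and Mmp19 0.15 in cDC1-like cells. With no doublet removal Mmp14 was -0.17 in the Spp1 Gpnmb subset and Mmp12 0.51 in mature DC-like cells. In mature DC-like cells Mmp14 was 0.18 and Timp2 -0.26 with a threshold of 1000 UMIs, Timp2 -0.0350 with no filter and Mmp2 0.0947 with DESeq2.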
